A study of Mus musculus with 29 samples.

Results

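The 10 genes described here encode enzymes of the methionine cycle and of the choline and sarcosine reactions that feed it: Bhmt, Bhmt2, Mat1a, Gnmt, Cbs, Cth, Ahcy, Pemt, Dmgdh and Sardh. They were taken by symbol from a table of 24346 genes, and each symbol matched 1 row. The list was drawn up around Bhmt, whose level in liver was much lower after a switch from high-fat diet to chow. Bhmt is therefore described without a test in every comparison of liver regimens, and so are all 10 genes in chow against high-fat diet. Where genes are still counted against a threshold there, the count is a description. Fasting on chow, and the difference of its change from that on high-fat diet, use the same chow livers. The choice of the list can favour a rise in both, so their p-values are not independent of it. Fasting on high-fat diet shares the high-fat livers, where the choice can favour a fall.

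The study measured liver and hippocampus by poly-A RNA sequencing in male C57BL/6J mice made obese on a high-fat diet for 10 weeks and then kept for 4 weeks on a regimen. All groups share the 10 weeks of high-fat feeding, so none of them is a lean control. HFD mice stayed on high-fat food without restriction, and HFD-IF mice ate high-fat food with intermittent fasting on alternate days. CC mice were moved to control chow without restriction, and CC-IF mice were moved to control chow with intermittent fasting. The design text gives the alternate-day schedule for HFD-IF, and the sources used here give neither the age of the mice nor whether tissue was taken after a fed or a fasted day. Of 32 samples stated in the design, 29 were analysed here. Every group held 4 libraries except HFD-IF in liver, with 2, and CC-IF in hippocampus, with 3. Each group is stated to hold biological replicates. Libraries are named below by their column index, which starts at 0.

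Methionine is activated to S-adenosylmethionine, which donates its methyl group and becomes S-adenosylhomocysteine and then homocysteine. Homocysteine is either methylated back to methionine, with betaine (made from choline) or a folate as donor, or passed to cysteine by transsulfuration. The liver holds most of this pathway in mammals, and it is known for taking up surplus methionine and for making phosphatidylcholine by methylation.

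The table gives FPKM, fragments per kilobase of transcript scaled to the mapped fragments of the library, with no counts. Step sizes of the lowest values gave approximate depths of 8.87 to 15.2 M fragments per liver library and 10.4 to 34.1 M per hippocampal library. Changes below are differences of log2(FPKM + 1) with their standard error (SE) from a limma model of the 4 regimens of a tissue. A gene is said to have risen or fallen where its Benjamini-Hochberg adjusted p was under 0.05 over all 11497 liver or 12857 hippocampal genes with a mean FPKM of at least 1. The labelled tissues matched their markers: Apoa1 was 5464 to 9184 FPKM in every liver, and the summed FPKM of the neuron list was 2038 to 2436 in every hippocampus. Alb was listed at 0 in 8 of 14 livers, which can be a failed estimate, while none of the 10 enzymes was listed at 0 in any liver. These zeros followed the regimens. Alb was at 0 in every CC-IF liver and at 29214.5 and 40063.7 FPKM in the HFD-IF livers, while HFD and CC held livers of both kinds. A part of this in the values of other genes was not tested. The 2 HFD-IF livers stood apart from each other. Library 1 had a summed Kupffer cell and macrophage FPKM of 472, against 116 in library 0 and 97.0 to 278 in the other livers. Its stellate cell and fibroblast sum was 546, against 183 in library 0 and 151 to 262 elsewhere. Its pericentral hepatocyte sum was 3040, against 8440.4 in library 0, and both lay within the 2707 to 8913 of the other livers. Most of each pericentral sum was Cyp2e1, at 2368 FPKM in library 1 and 7032 in library 0. The main results that use HFD-IF are therefore given with and without each of these libraries. In bulk tissue, fewer cells of a type and less RNA per cell cannot be told apart.

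Bhmt, Bhmt2 and Dmgdh lie side by side on mouse chromosome 13. On GRCm38 (GENCODE M21), Bhmt spans 93616675 to 93637961 on the minus strand and Bhmt2 93655720 to 93674302 on the minus strand. Dmgdh runs the other way, from 93674433 to 93752833 on the plus strand. The other 7 genes lie apart: Mat1a on chromosome 14 (41105035 to 41124412, plus strand), and on the minus strand Gnmt (46725664 to 46729168) and Cbs (31608894 to 31637238) on chromosome 17, Ahcy (155059310 to 155074497) and Sardh (27188393 to 27248337) on 2, Cth (157894248 to 157925077) on 3 and Pemt (59970614 to 60046489) on 11. Bhmt2 and Dmgdh share an upstream region, with RefSeq start sites 134 bases apart, and their RefSeq promoter windows have 233 bases in common. RefSeq promoter windows (GRCm38.p6, 250 bases before to 50 after the start) were at hand for 8 of the 10 genes. Those of 5 genes are printed because their levels differ in pattern: Bhmt, which is low on chow, its neighbour Bhmt2, Gnmt and Ahcy, which were higher with fasting on chow, and Cbs, which was lower. Lower case is used except for matches, on either strand, to the motifs AGGTCA (a nuclear receptor half-site), TGACG (a CREB half-site), CCAAT (the CCAAT box) and TATAA (the TATA box). A match on the other strand shows as the reverse complement of its motif.
Bhmt, chr13:93637709-93638008, minus strand: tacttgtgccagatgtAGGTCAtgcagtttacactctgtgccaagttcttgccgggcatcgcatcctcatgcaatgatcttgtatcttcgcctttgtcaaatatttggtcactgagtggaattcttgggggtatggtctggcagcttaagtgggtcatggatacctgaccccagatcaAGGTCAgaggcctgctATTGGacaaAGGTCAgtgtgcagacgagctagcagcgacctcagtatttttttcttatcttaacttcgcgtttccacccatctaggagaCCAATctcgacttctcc
Bhmt2, chr13:93674253-93674552, minus strand: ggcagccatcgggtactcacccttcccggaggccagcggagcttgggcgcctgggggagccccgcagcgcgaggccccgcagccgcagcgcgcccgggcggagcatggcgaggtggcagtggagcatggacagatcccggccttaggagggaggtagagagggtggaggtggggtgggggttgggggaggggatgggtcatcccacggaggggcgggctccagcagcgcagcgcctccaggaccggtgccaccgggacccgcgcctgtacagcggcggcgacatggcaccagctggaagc
Gnmt, chr17:46729116-46729415, minus strand: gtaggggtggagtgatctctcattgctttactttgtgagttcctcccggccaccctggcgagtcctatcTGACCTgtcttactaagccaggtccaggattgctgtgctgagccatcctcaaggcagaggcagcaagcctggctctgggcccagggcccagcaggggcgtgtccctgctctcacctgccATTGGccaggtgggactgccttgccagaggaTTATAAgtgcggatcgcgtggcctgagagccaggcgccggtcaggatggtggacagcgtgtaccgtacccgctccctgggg
Ahcy, chr2:155074448-155074747, minus strand: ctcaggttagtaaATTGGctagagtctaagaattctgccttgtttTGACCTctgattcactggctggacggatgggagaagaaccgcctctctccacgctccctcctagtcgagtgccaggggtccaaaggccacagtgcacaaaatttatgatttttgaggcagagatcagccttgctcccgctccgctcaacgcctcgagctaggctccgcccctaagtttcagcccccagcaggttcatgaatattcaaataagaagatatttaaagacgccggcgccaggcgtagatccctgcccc
Cbs, chr17:31637156-31637455, minus strand: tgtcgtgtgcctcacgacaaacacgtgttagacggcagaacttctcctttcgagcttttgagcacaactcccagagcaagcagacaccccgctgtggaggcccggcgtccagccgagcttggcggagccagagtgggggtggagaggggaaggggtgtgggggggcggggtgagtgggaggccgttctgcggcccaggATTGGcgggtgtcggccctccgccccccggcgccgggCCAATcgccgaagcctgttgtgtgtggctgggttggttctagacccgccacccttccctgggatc
The Bhmt window holds AGGTCA at 3 places, at -234, -72 and -47 from the start site. Of 32851 mouse promoter windows of the same length, 16.3% held at least 1 match and 60, or 0.183%, held 3 or more. Gnmt and Ahcy each hold 1 match on the other strand, at -181 and -205, and the Sardh window holds 1 at -204. The Cbs window holds no AGGTCA and 2 CCAAT boxes at -52 and -15, a motif present in 37.4% of all windows. CCAAT also occurs at -56 and 34 in Bhmt, at -62 in Gnmt, at -237 in Ahcy and at -248 in the first Pemt window. TATAA, in 24.9% of windows, was found in Gnmt at -30 with its overlapping reverse match at -31, and in the first of 2 Pemt windows at -33. TGACG, in 20.8% of windows, was in none of those of these 8 genes. The Bhmt2 window, with 73.7% G and C against 48% in Bhmt, holds none of the 4 motifs. A match is a run of letters and not a measured binding site, and the motifs were chosen after the windows were read.

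Mat1a, the S-adenosylmethionine synthetase of adult liver, had the largest log2 change of the 10 with fasting on chow. Its FPKM was 488, 552, 601 and 790.3 in the CC livers and 1662, 1923, 2048 and 2075 in the CC-IF livers. In HFD livers it was 1034, 1034, 1124 and 1255, and in the 2 HFD-IF livers 1644 and 1657. All CC libraries lay below all others, and both fasted groups lay above both unfasted groups without overlap. Mat1a rose by 1.68 ± 0.14 (log2, SE) in CC-IF against CC (adjusted p = 1.78e-05, limma). On high-fat diet the change was 0.57 ± 0.17 (adjusted p = 0.113), which did not pass the threshold. The difference between those changes was 1.11 ± 0.22 (adjusted p = 0.0375), and it was 1.1 (adjusted p = 0.0159) without HFD-IF library 0 and 1.11 (adjusted p = 0.106) without library 1. The CC livers averaged 0.89 ± 0.14 (log2, SE) below HFD, printed here as a description.

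Gnmt, glycine N-methyltransferase, uses surplus S-adenosylmethionine to turn glycine into sarcosine. It measured 847, 948, 1077 and 1158 FPKM in CC livers and 1440.5, 1449, 1564 and 1763 FPKM in CC-IF livers, with no overlap. Gnmt rose by 0.63 ± 0.16 on the log2 scale with fasting on chow (adjusted p = 0.0120). HFD livers were at 1262, 1407, 1553 and 1605 FPKM, which overlaps the CC-IF range. The 2 HFD-IF livers differed widely from each other, with 1397 FPKM in library 0 and 835 in library 1. The change in HFD-IF against HFD was -0.43 ± 0.19 (log2, adjusted p = 0.278). It was -0.05 without library 1 and -0.80 (adjusted p = 0.0159) without library 0.

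Pemt, which methylates phosphatidylethanolamine to phosphatidylcholine, had the smallest ratio of highest to lowest liver of the 10 enzymes. It measured 332 to 396 FPKM in HFD, 239.9 and 349 in HFD-IF, 293 to 374 in CC and 299 to 325 in CC-IF. The log2 change in CC-IF against CC was -0.11 ± 0.12 (adjusted p = 0.546), with a 95% interval from -0.36 to 0.14.

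Ahcy, which splits S-adenosylhomocysteine into adenosine and homocysteine and so relieves inhibition of methyl transfer, varied with Mat1a over the livers (Pearson's r = 0.86). Its FPKM was 458, 496, 635 and 689 in CC, and 1311, 1408, 1453 and 1714 in CC-IF. HFD livers measured 717, 756, 775 and 857, and the HFD-IF livers 1028 (library 0) and 635 (library 1). Every CC-IF liver was above every other liver. Ahcy rose by 1.38 ± 0.16 (log2) with fasting on chow (adjusted p = 0.00014), and the difference from the fasting change on high-fat diet was 1.32 ± 0.26 (adjusted p = 0.0372). That difference was 1.67 (adjusted p = 0.00237) without HFD-IF library 0 and 0.97 (adjusted p = 0.143) without library 1. The level of Ahcy is uncertain because 69.7% of the 125-nt windows of its longest transcript are found exactly in the gene copies Gm4737 or Gm9826. Gm4737 was listed at 2.98 to 4.55 FPKM in CC and 9.48 to 14.3 FPKM in CC-IF livers, and how shared reads were assigned was not given in the sources used here.

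**Figure D1:**
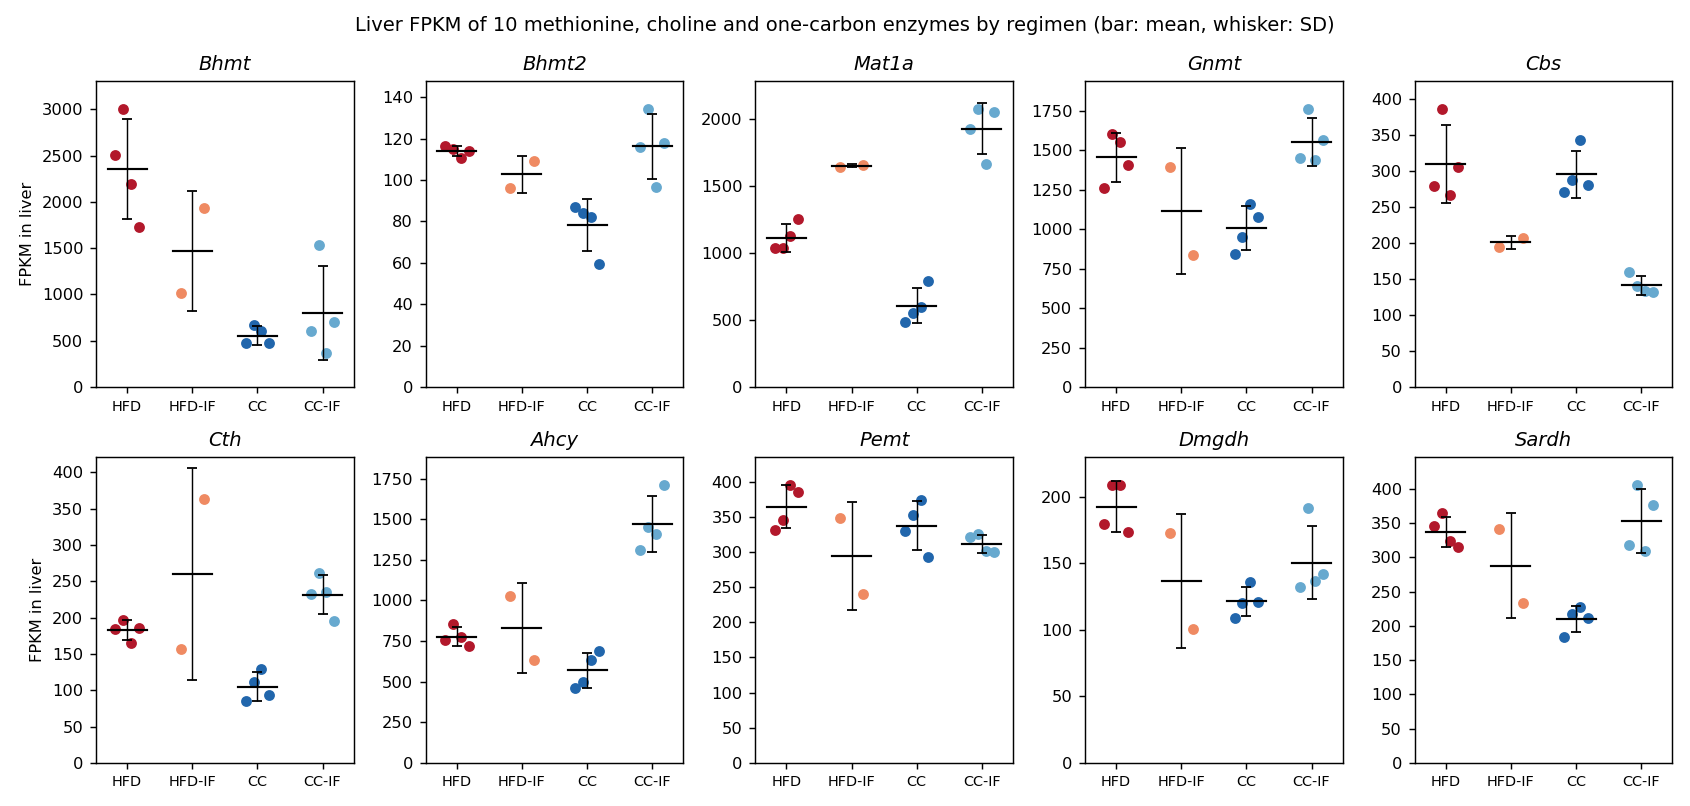
FPKM of the 10 enzymes in every liver (y axes from 0, 1 panel per gene), grouped by regimen on the x axis; points are libraries, bars are group means and whiskers are the SD. Mat1a and Ahcy have their lowest mean in CC and their highest in CC-IF livers, Cbs is lowest in CC-IF at 131 to 160.0 FPKM, and Bhmt is highest in HFD at 1725 to 3004 FPKM.

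Bhmt, the betaine-homocysteine methyltransferase, passes a methyl group from betaine to homocysteine. Its FPKM was 1725, 2189, 2507 and 3004 in the 4 HFD livers and 473, 478, 607 and 671 in the 4 CC livers. The lowest HFD liver was above every CC liver, as the choice of Bhmt implies, and the log2 difference was -2.07 ± 0.35 (SE), given without a test. The HFD-IF livers held 1011 and 1932 FPKM, in libraries 0 and 1. In CC-IF livers Bhmt was 368, 608, 702 and 1533 FPKM, the widest spread of any chow group, with a mean of 803 ± 507 (SD, n = 4) against 557 ± 97.9 (SD, n = 4) in CC. CC-IF and CC overlapped, and the log2 difference of 0.35 ± 0.35 was as large as its SE. It was -0.03 without the CC-IF library at 1533 FPKM. CC-IF livers averaged below HFD-IF livers, with a log2 difference of -1.0 ± 0.43, given without a test. It was -1.46 without HFD-IF library 0 and -0.53 without library 1. CC-IF library 1, the highest, lay between the 2 HFD-IF values.

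Bhmt2, the neighbouring gene, encodes a methyltransferase that takes its methyl group from S-methylmethionine. HFD livers were tightly grouped at 111, 114, 115 and 116 FPKM. CC livers were at 59.5, 82.0, 84.0 and 87.0 FPKM, and CC-IF livers at 96.5, 116, 118 and 134 FPKM. Both HFD and CC-IF lay wholly above CC. Bhmt2 rose by 0.57 ± 0.12 (log2) in CC-IF against CC (adjusted p = 0.00503), where the Bhmt groups overlapped. The longest run of letters shared by Bhmt and Bhmt2 transcripts was 59 nt, under the read length of 125 nt, so whole reads could not match both exactly. Of the 125-nt windows of the longest Bhmt transcript, 4.77% are also found in Bhmt-ps1 or Gm5096. Reads of the antisense genes Gm15622 in Bhmt and AW495222 in Dmgdh may be mixed with those of their partners, because the strand setting of the counting was not given in the sources used here.

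Dmgdh and Sardh are mitochondrial flavoproteins that demethylate dimethylglycine, the product of the Bhmt reaction, and sarcosine, the product of Gnmt. Sardh measured 184, 212, 217 and 228 FPKM in CC and 309.8, 319, 377 and 406 FPKM in CC-IF livers. HFD livers were at 315, 323, 345 and 365 FPKM, in the range of CC-IF. Sardh rose by 0.74 ± 0.13 (log2) with fasting on chow (adjusted p = 0.00134). Its fasting change on high-fat diet was -0.25 ± 0.16 (adjusted p = 0.421), and the difference between diets was 0.99 ± 0.20 (adjusted p = 0.0400). That difference was 1.26 (adjusted p = 0.00238) without HFD-IF library 0 and 0.72 (adjusted p = 0.161) without library 1, and it had adjusted p = 0.0503 with no filter on low values. Dmgdh was 109 to 136 FPKM in CC and 132 to 191 FPKM in CC-IF livers, which overlap. Its log2 change of 0.30 ± 0.16 (adjusted p = 0.199, 95% interval -0.05 to 0.64) did not pass the threshold.

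Cbs and Cth carry out the consecutive steps of transsulfuration, from homocysteine to cystathionine and from cystathionine to cysteine, and with fasting on chow they changed in opposite directions. Cbs was 270.1, 281, 287 and 343 FPKM in CC livers and 131, 133, 139.9 and 160.0 FPKM in CC-IF livers. It was 267, 279, 305 and 386 FPKM in HFD and 194 and 207 FPKM in HFD-IF livers. Both fasted groups lay below both unfasted groups. Cbs fell by 1.06 ± 0.12 on the log2 scale with fasting on chow (adjusted p = 9.7e-05). On high-fat diet the change was -0.61 ± 0.15 (adjusted p = 0.0648), and it was -0.56 or -0.65 without HFD-IF library 0 or 1. The difference between diets, -0.45 ± 0.19 (adjusted p = 0.233), did not pass the threshold.

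Cth measured 85.7, 93.6, 111 and 129.7 FPKM in CC and 196, 232, 235 and 261 FPKM in CC-IF livers. It rose by 1.14 ± 0.21 (log2) with fasting on chow (adjusted p = 0.00194), and its groups did not overlap. HFD livers were at 165, 184, 185 and 197 FPKM. The HFD-IF livers were at 157 FPKM in library 0 and 363 FPKM in library 1, the highest of all livers. The log2 change in HFD-IF against HFD was 0.39 ± 0.26 (adjusted p = 0.448). It was -0.21 without library 1 and 0.99 (adjusted p = 0.00726) without library 0, so 1 library decided its direction.

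Of the 9 enzymes tested in CC-IF against CC (Bhmt was left untested), 6 rose, namely Bhmt2, Mat1a, Gnmt, Cth, Ahcy and Sardh, and Cbs fell. Of all liver genes, 24.0% passed the same threshold, 14.2% upward and 9.77% downward. The groups of those 7 genes did not overlap, as for 28.8% of all liver genes, and 7 passed in each of the 8 fits that left out a CC or CC-IF library. The median log2 change of the 10, with the untested Bhmt among them, was 0.60, against 0.02 over all liver genes. The list was chosen from results that include CC against HFD, and the same CC livers are the baseline here. The choice can thus favour a rise, and neither the count nor the median is independent of it. Summed marker levels moved between CC and CC-IF too. The pericentral hepatocyte sum was 2707 to 5373 FPKM in CC and 6399 to 8913 FPKM in CC-IF, most of it Cyp2e1, at 1881 to 4429 and 5678 to 7886 FPKM. Of the 8 genes of that list, Oat was also higher without overlap, Cyp1a2 was lower, at 179 to 205 and 76.2 to 137 FPKM, and the other 5 overlapped. The periportal sum was 4248 to 4882 and 5556 to 6330 FPKM, with Pck1 at 1416 to 1794 and 2178.5 to 2810 FPKM. Sds, Gls2 and Hsd17b13 were also higher, Cdh1 was lower, at 23.9 to 40 and 7.31 to 11.7 FPKM, and Hal, Cyp2f2 and Ass1 overlapped. The Kupffer cell and macrophage sum, with all 9 genes above 0, was 149.7 to 278 FPKM in CC and 97.0 to 155 FPKM in CC-IF. Their part in the changes of the enzymes was not tested.

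In CC against HFD, which shares the CC libraries with the comparison above, 8 of the 10 enzymes were lower in every CC liver than in any HFD liver, and Cbs and Pemt overlapped. The log2 differences, as a description, were -0.54 ± 0.16 for Gnmt, -0.55 ± 0.12 for Bhmt2, -0.66 ± 0.16 for Dmgdh, -0.68 ± 0.13 for Sardh and -0.81 ± 0.21 for Cth. Ahcy was at -0.46 ± 0.16, Pemt at -0.11 ± 0.12 and Cbs at -0.06 ± 0.12. Bhmt, Bhmt2, Mat1a, Dmgdh and Sardh, 5 of 10, were past the adjusted threshold, beside 2.30% of all liver genes, 0.339% higher and 1.97% lower. Since this comparison chose the list, nothing is read from that count. Dmgdh lay just inside the threshold and Cth just outside it. Leaving out any 1 library of these groups left 1 to 3 of the 10 and 51 to 245 of all genes past it, the lowest of both when HFD library 0 was left out. Groups did not overlap for 14.1% of all liver genes. The adipocyte list differed between these groups through Cfd alone, at 5.29 to 70.9 FPKM in HFD and 0 to 0.205 in CC livers, while Adipoq was listed at 0 in all of them.

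**Figure D2:**
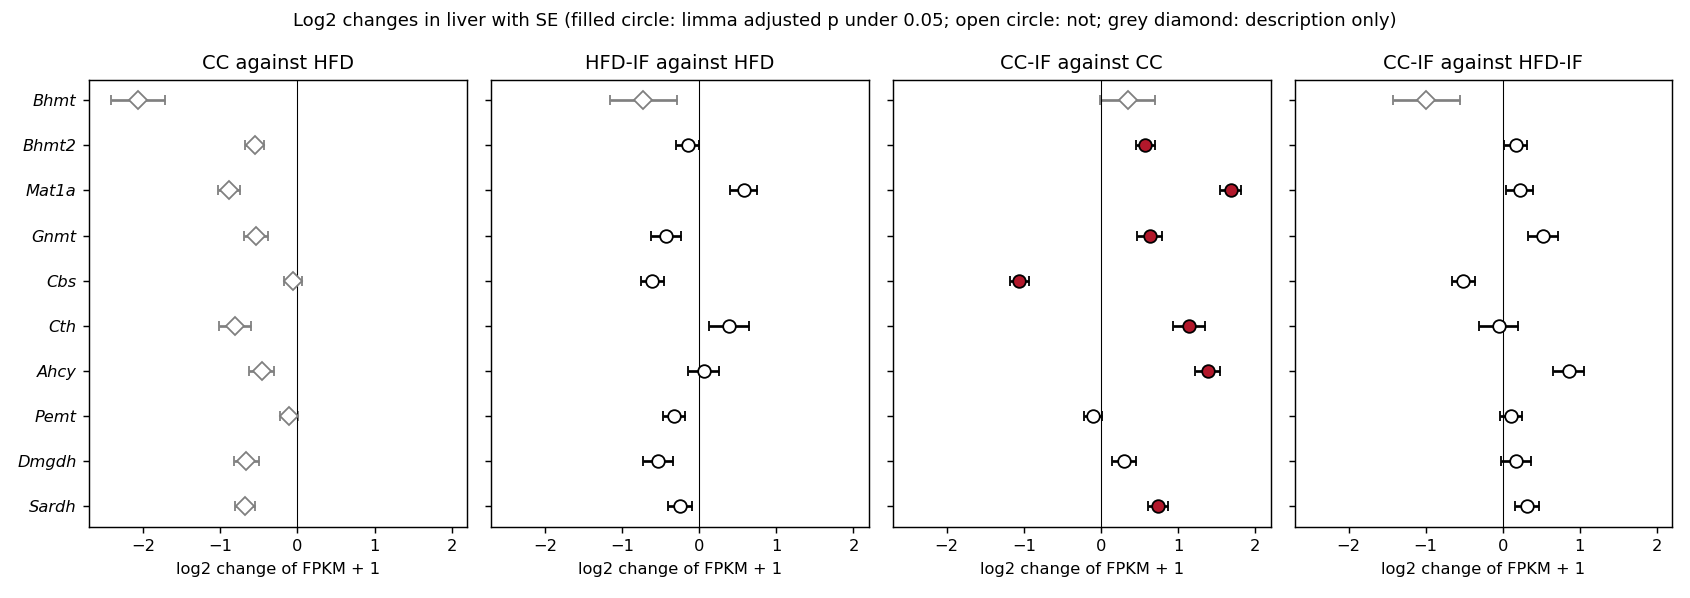
Log2 change of FPKM + 1 (x axis) of each enzyme (y axis) in 4 liver comparisons, with SE bars; filled circles passed an adjusted p of 0.05 in limma, open circles did not, and grey diamonds are descriptions without a test. In CC-IF against CC, 6 filled circles lie to the right of 0 and Cbs to the left, no circle is filled in the comparisons with HFD-IF, and Bhmt is a diamond throughout.

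No enzyme passed the threshold in HFD-IF against HFD, where 1.32% of all liver genes passed, 0.357% higher and 0.965% lower. At an unadjusted p under 0.05 there were 5 of the 9 enzymes tested and 17.8% of all liver genes. Mat1a lay above HFD in both HFD-IF livers, and Bhmt2, Cbs and Dmgdh lay below it, while 22.2% of all liver genes did not overlap. With HFD-IF library 0 left out, 4 enzymes passed (Gnmt, Cth, Pemt and Dmgdh) along with 1633 of all genes, and with library 1 left out 0 enzymes and 5 of all genes did. Those fits take the spread of the lone HFD-IF liver from the other groups. CC-IF against HFD-IF also gave 0 enzymes past the threshold, against 0.591% of all liver genes. At an unadjusted p under 0.05 there were 3 of the 9 tested and 18.2% of all liver genes. Mat1a, Gnmt and Ahcy were higher and Cbs lower in CC-IF without overlap, as for 21.2% of all liver genes in either direction. Ahcy had the largest log2 change of these, 0.86 ± 0.20 (adjusted p = 0.0682), and it was 1.2 without HFD-IF library 0 and 0.51 without library 1. Without library 0, Gnmt, Cth, Ahcy and Sardh passed along with 1773 of all genes, against 68 with both libraries. Without library 1, 0 enzymes and 5 of all genes passed.

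The fasting change differed between chow and high-fat diet for 3 enzymes, Mat1a, Ahcy and Sardh, against 1.11% of all liver genes, 1.00% upward and 0.113% downward. This difference contains the CC against HFD difference in full, with its sign turned. Since that comparison chose the list, the choice favours values above 0, and nothing is read from the count. Between 0 and 5 enzymes, and between 16 and 1766 of all genes, passed over the 14 fits that left out 1 liver. The 5 came with the 1766, in the fit without HFD-IF library 0. It was 0 enzymes when 1 of HFD libraries 0, 2 and 3, CC libraries 0, 1 and 2, or CC-IF libraries 0, 1 and 3 was left out. Gnmt had a difference of 1.06 ± 0.25 (adjusted p = 0.0634), which was 1.43 without HFD-IF library 0 and 0.68 without library 1. Dmgdh had one of 0.83 ± 0.25 (adjusted p = 0.119), which was 1.22 and 0.45 in those fits. Bhmt2 had one of 0.72 ± 0.19 (adjusted p = 0.0874). Cth, at 0.75 ± 0.33 (adjusted p = 0.249), was at 0.15 without HFD-IF library 0 and at 1.36 (adjusted p = 0.0444) without library 1.

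The other genes of the pathway were read from 6 lists, first for CC-IF against CC in liver. Of their 82 genes tested 21 rose and 7 fell, and the counts below stand beside 14.2% of all liver genes that rose and 9.77% that fell. In the folate cycle, which supplies the other methyl donor, 5 of 22 genes tested rose and 3 fell. Slc19a1, the reduced folate carrier, rose by 1.04 ± 0.16 (adjusted p = 0.000786), from 2.49 ± 0.694 (SD, n = 4) to 6.09 ± 0.904 FPKM. Of the glycine cleavage system, Gldc fell by 0.70 ± 0.09 (adjusted p = 0.000201) and Amt by 0.59 ± 0.09, while Gcsh was at 0.32 ± 0.11 (adjusted p = 0.0524). Gcsh was named after its values were seen. The list's median was 0.09.

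Of 13 other genes of methyl transfer, 3 rose and 2 fell. Inmt, an amine methyltransferase, rose by 1.29 ± 0.31, Hnmt, which methylates histamine, by 0.60 ± 0.15, and Mat2a, the S-adenosylmethionine synthetase of most other tissues, by 0.50 ± 0.13. In the list of choline uptake and phosphatidylcholine synthesis, 6 of 18 rose and 0 fell. Pcyt1a, the rate-setting enzyme of phosphatidylcholine synthesis from choline, rose by 0.80 ± 0.12 (adjusted p = 0.000443). Etnk2, an ethanolamine kinase, rose by 1.21 ± 0.18, Chpt1, a choline phosphotransferase, by 0.96 ± 0.24, and Slc44a3, of the choline transporter-like family, by 0.81 ± 0.18.

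Downstream of transsulfuration, 2 of 11 genes rose and 1 fell. Gclm, the modifier subunit of glutamate-cysteine ligase, rose by 0.48 ± 0.11 and Suox, sulfite oxidase, by 0.39 ± 0.10, and Ethe1, which oxidises sulfide-derived persulfide, fell by 0.83 ± 0.13 (adjusted p = 0.000786). In methionine salvage and polyamine metabolism 2 of 11 rose, Enoph1 and Adi1 of the salvage route, and the polyamine oxidase Paox fell. Of 7 genes of sarcosine and glycine metabolism 3 rose. Etfb, a part of the carrier that takes electrons from Dmgdh and Sardh, rose by 0.47 ± 0.10. Etfdh, which takes electrons on from that carrier, rose by 0.51 ± 0.11, and Pipox, another sarcosine oxidase, by 0.42 ± 0.13. Mat2a and Adi1 each passed in 5 of the 8 fits that left out a CC or CC-IF library, Paox in 4 and Pipox in 3, and the other genes named here as changed passed in all 8. Paox also missed the threshold with no filter on low values (adjusted p = 0.0566) and in a fit on the compared groups alone (adjusted p = 0.0583). The medians of the last 5 lists were 0.27, 0.19, 0.28, 0.08 and 0.11, beside 0.02 over all genes.

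The other liver comparisons called fewer genes of the lists. In HFD-IF against HFD, Aldh1l1, a folate dehydrogenase, fell by 0.81 ± 0.15, Gldc by 0.51 ± 0.11 and Paox by 1.44 ± 0.22, while Sat1, which acetylates polyamines, rose by 0.70 ± 0.13, and no other of the 82 passed. Without HFD-IF library 0 these 4 were at -0.97, -0.47, -1.62 and 0.89, and without library 1 at -0.65, -0.54, -1.26 and 0.50. None of the 4 passed in every fit that left out 1 library. In a limma fit on the compared groups alone, Aldh1l1 (adjusted p = 0.156), Gldc (0.220) and Sat1 (0.220) missed the threshold. With median-of-ratios scaling, Gldc missed it as well (adjusted p = 0.0537, limma). In CC-IF against HFD-IF, Slc25a32, the mitochondrial folate carrier, rose by 0.85 ± 0.14 and was the only listed gene to pass. It passed in 1 of the 6 fits that left out a library, with adjusted p = 0.143 without HFD-IF library 1. The fasting change differed between diets for Aldh1l1 (0.87 ± 0.19), Etnk2 (1.32 ± 0.28) and Suox (0.79 ± 0.16), which passed in 2, 3 and 4 of the 14 fits that left out 1 liver. Of all liver genes, 1.11% passed. With no filter on low values, Aldh1l1 (adjusted p = 0.0605, limma) and Etnk2 (0.0660) missed the threshold. With median-of-ratios scaling they missed it as well (0.0610 and 0.0650). This difference between diets contains the CC against HFD difference, given next, with its sign turned. In CC against HFD, as a description, 7 of the 82 were past the threshold, all lower on chow, beside 1.97% of all liver genes lower, among them Suox at -0.78 ± 0.10, Mpst at -0.78 ± 0.13, Tpmt at -0.75 ± 0.12, Aldh1l1 at -0.52 ± 0.12 and Ftcd at -0.35 ± 0.08. With 1 library left out, Aldh1l1 stayed past it in 0 and Ftcd in 1 of 8 fits.

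**Figure D3:**
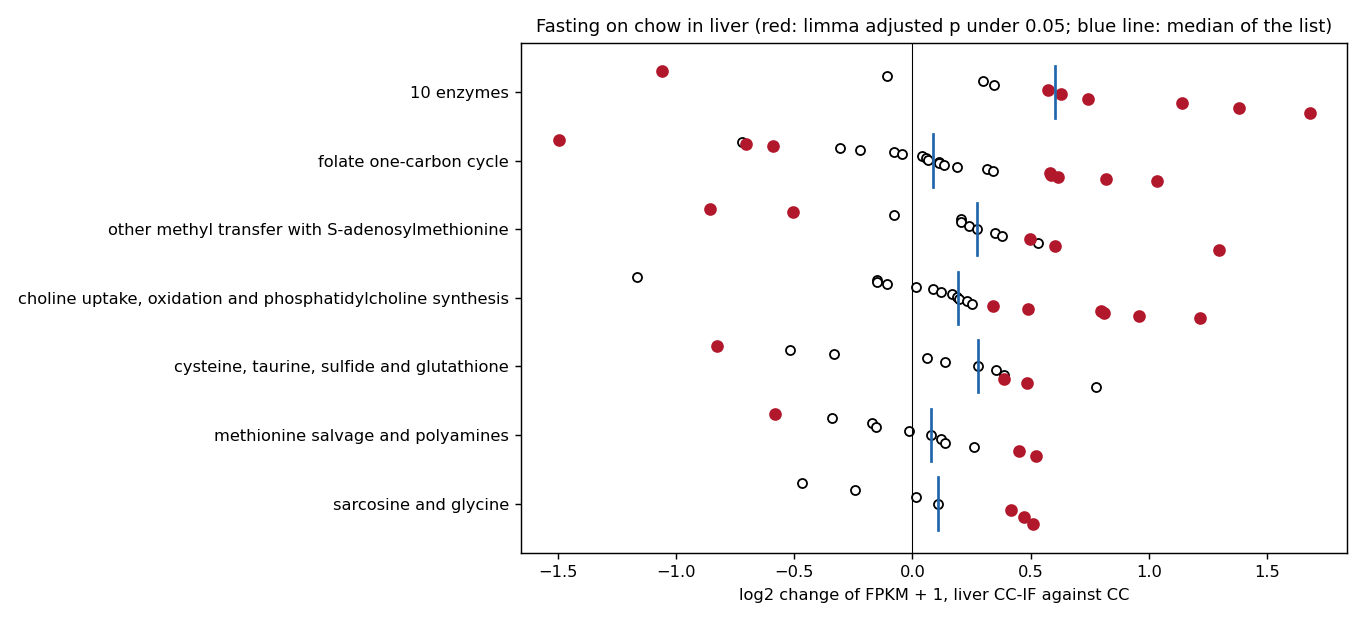
Log2 change of FPKM + 1 in liver, CC-IF against CC (x axis), for every tested gene of the 10 enzymes and of 6 lists of the pathway (y axis); red points passed an adjusted p of 0.05 in limma and blue lines are list medians. The median of the 10 enzymes, which were chosen with results of the same CC livers known, is 0.60. Those of the 6 lists lie between 0.08 and 0.28.

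In liver the 10 enzymes stood among the most abundant transcripts per length. Mean FPKM over 14 livers was 1308 for Gnmt, 1278 for Mat1a, 1272 for Bhmt, 924 for Ahcy, 332 for Pemt, 298 for Sardh, 242 for Cbs, 185 for Cth, 152 for Dmgdh and 103 for Bhmt2. The 3 highest could not be ordered beyond their spread, since their ranges over livers were 835 to 1763, 488 to 2075 and 368 to 3004 FPKM. Between 96.2% and 99.5% of all genes were below them.

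In hippocampus only Cbs, Ahcy and Sardh reached a mean FPKM of 1. Cbs was 6.58 to 9.22, Ahcy 5.16 to 7.79 and Sardh 1.29 to 1.80 FPKM over the 15 libraries. Cth was 0.508 to 1.24 and Pemt 0.407 to 1.99 FPKM. The others stayed under 1 FPKM, with Gnmt up to 0.747, Bhmt up to 0.226, Bhmt2 up to 0.203, Dmgdh up to 0.135 and Mat1a up to 0.116, and Bhmt was listed at 0 in 6 of 15, Mat1a in 5 and Gnmt in 2. For every enzyme the lowest liver was above the highest hippocampus, by a ratio of 14.2 for Cbs, 58.8 for Ahcy and 4221 for Mat1a. The share of all genes whose tissues do not overlap was not computed, so nothing is read from this separation. All 10 were higher in liver in limma, where 91.6% of 13664 genes differed, 45.4% higher and 46.2% lower in liver. That fit kept genes with a mean FPKM of at least 1 over all libraries of both tissues. The enzymes other than Cbs, Ahcy and Sardh passed that filter only through liver. Their direction was thus fixed in advance, and their place in the count is a description. The difference on the log2(FPKM + 1) scale ran from 4.67 ± 0.06 for Cbs to 10.17 ± 0.05 for Mat1a.

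Cbs, Ahcy and Sardh were tested for the regimens in hippocampus and none passed, whether at the adjusted threshold or at an unadjusted p under 0.05, in any of the 5 comparisons. Of all hippocampal genes, 0 passed in 4 of them and 1, or 0.00778%, in CC-IF against CC, where 822 genes had an unadjusted p under 0.05. Libraries of the compared groups overlapped for all 3 enzymes. Groups did not overlap for 2.47% of hippocampal genes in CC against HFD, 3.28% in HFD-IF against HFD, 8.98% in CC-IF against CC and 4.24% in CC-IF against HFD-IF. The fasting change on chow differed between liver and hippocampus for each of them, by a test added after the values were seen. The liver part of that test uses the CC livers that helped choose the list, so the choice can favour values above 0. The liver change minus the hippocampal change was -0.96 ± 0.15 for Cbs (adjusted p = 0.00012), 1.34 ± 0.20 for Ahcy (adjusted p = 5.53e-05) and 0.78 ± 0.15 for Sardh (adjusted p = 0.000754), where 13.8% of 9939 genes passed. Summed choroid plexus markers varied from 11.6 to 1787 FPKM between hippocampi of all groups, and their part was not tested.

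**Figure D4:**
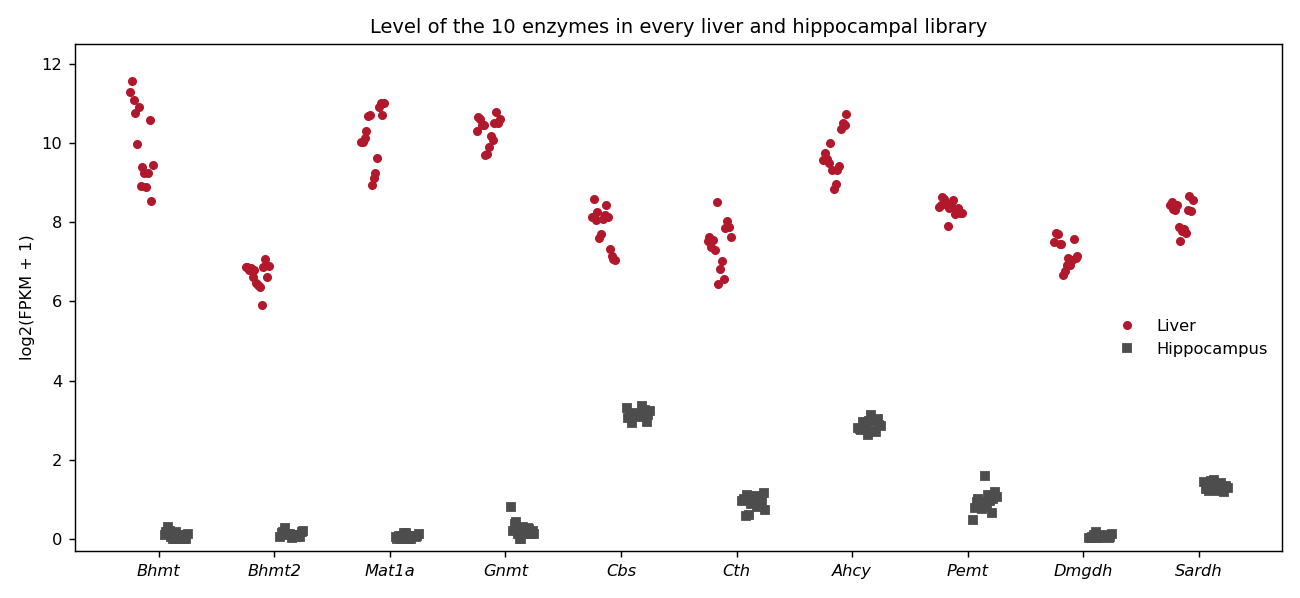
Log2(FPKM + 1) of each enzyme (x axis) in all 14 livers (red circles) and all 15 hippocampi (grey squares), 1 point per library. The tissues do not overlap for any enzyme, and Cbs is nearest to doing so, at 131 to 386 FPKM in liver and 6.58 to 9.22 FPKM in hippocampus. The share of all genes without such overlap was not computed.

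Across the 14 livers the enzymes did not vary as 1 group. Pearson's r of log2(FPKM + 1) was 0.91 between Gnmt and Sardh, 0.86 between Mat1a and Ahcy, 0.83 between Mat1a and Cth, and 0.82 between Gnmt and Dmgdh. Cbs was at -0.80 with Ahcy and -0.76 with Mat1a. Bhmt was nearest to its neighbours Dmgdh (0.65) and Bhmt2 (0.62) and far from Mat1a (0.22) and Ahcy (-0.06). These values describe libraries that share 4 regimens and carry no test.

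**Figure D5:**
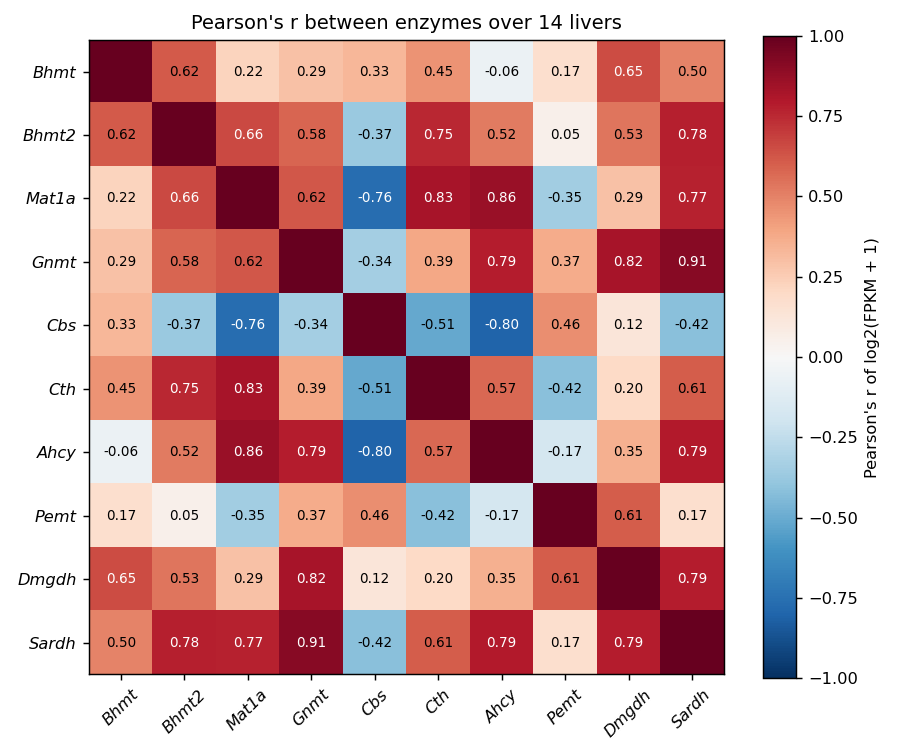
Pearson's r of log2(FPKM + 1) between each pair of enzymes over 14 livers, printed in each square and coloured from blue (-1) to red (1). Cbs is negative with Mat1a (-0.76) and Ahcy (-0.80), and Bhmt has its highest value, 0.65, with Dmgdh.

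Among 10858 liver genes, those most like Bhmt over the 14 livers were Def8 (r = 0.94), Them7 (0.92), Agmat (0.92), Tst (0.91) and Agxt2 (0.90). Tst encodes the sulfurtransferase rhodanese and Agxt2 a mitochondrial aminotransferase. As likeness to Bhmt implies, the mean FPKM of each of the 5 was highest in HFD and lowest in CC livers. Agxt2 was at 76.4 and 39.9 and Tst at 198 and 149. The genes most unlike it were Med13l (-0.92), Yy1 (-0.90) and Ryk (-0.90). With 1 liver left out, r stayed between 0.88 and 0.95 for the 5 and between -0.96 and -0.87 for the 3. These genes were picked by r over the same livers, so those ranges were largely fixed in advance.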

How the data were processed

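Poly-A RNA of about 20 mg of tissue, 1 µg of total RNA per library, was sequenced as stranded 125-nt read pairs, per the labels' protocols. FastQC 0.11.9, Trimmomatic 0.39, TopHat2 2.1.1, Bowtie2 2.3.5.1 and GRCm38 (mm10) are named in the submitters' processing notes. The authors deposited 1 table of FPKM values per gene and library; no source used here names the program or annotation behind it. Column names gave the group of every column but not the replicate of the labels, so columns were tied to groups only. No 2 libraries of a group were alike: over 40 pairs, r was 0.934 to 0.977.

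FPKM keeps no counts. At least 55.1% of low values were within 0.2 of a whole fragment. The depth of each library was picked to make that share largest. The 40% expected by chance at a fixed depth is thus too low a comparison. Reads were not recovered and depths are approximate. Limma 3.58.1 (R 4.3.3) was fitted to log2(FPKM + 1) per tissue with group as the only term and a trended variance, on genes with a mean FPKM of at least 1. Tests are two-sided with Benjamini-Hochberg adjustment. A fold on this scale understates changes of low genes. On data simulated for 11497 liver genes, CC-IF against CC recovered 45% of log2 changes of 0.5 and 96% of changes of 1, with 6 false calls, and CC-IF against HFD-IF 32% and 87%. The simulation gave each gene the same normal spread in all groups and planted changes only in well expressed genes. Its rates do not describe the HFD-IF livers, which stood apart from each other. The alternatives were a pseudocount of 0.1, no filter, median-of-ratios scaling, a fit on the compared groups alone and leaving out each library.

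The members and lists were chosen with earlier results of these data known. All 10 enzymes are named in each comparison; for each list, up to 4 genes of smallest p past the threshold are named in CC-IF against CC and up to 2 in the others, and the 5 genes most like and 3 least like Bhmt. Some genes that this rule names are not reported here. Predicted genes and transcripts under 300 nt were left out of that ranking. Tables were joined in Python 3.11.15 with pandas 2.3.3 and numpy 2.4.6, and plots drawn with matplotlib 3.10.9.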

Additional observations from a re-analysis of the deposited data

Results flagged for a closer look

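Of the 60 groups of 4 libraries that the 10 enzymes give, the 40 with a mean of at least 1 FPKM were checked. Of these, 2 held a library far from the other 3, and chance gives about 1 in 20. Pemt was 1.99 FPKM in hippocampal HFD-IF library 3, against 0.683 to 0.903 FPKM in the other libraries of its group. That group reached a mean of 1 FPKM, and so entered the check, only through library 3. Dmgdh was 191 FPKM in liver CC-IF library 1. That library was also the highest CC-IF liver for Bhmt, at 1533 FPKM, and for Bhmt2, Mat1a, Gnmt, Cth, Pemt and Sardh, but not for Cbs or Ahcy.

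The fasting change in liver differed between chow and high-fat diet for Mat1a by 1.11 (log2, adjusted p = 0.0375, limma), for Ahcy by 1.32 (adjusted p = 0.0372) and for Sardh by 0.99 (adjusted p = 0.0400). These differences contain the CC against HFD difference that chose the list, so they are not independent of that choice. Without HFD-IF library 0 they were 1.1, 1.67 and 1.26, with adjusted p of 0.0159, 0.00237 and 0.00238. Without HFD-IF library 1 the differences were 1.11, 0.97 and 0.72, with adjusted p of 0.106, 0.143 and 0.161. The fasting change on chow differed between liver and hippocampus for Cbs by -0.96, for Ahcy by 1.34 and for Sardh by 0.78, and each passed in all 15 fits that left out 1 library. All of those fits use CC livers, which helped choose the list, so these differences are not independent of the choice either.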

How the results depend on the processing

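No paired analysis was possible because the column indexes could not be tied to the labels' replicate numbers, so the fit with these numbers as a block was not run. With 1 library left out in turn, the enzymes called ranged from 7 to 7 in CC-IF against CC, from 0 to 4 in HFD-IF against HFD, from 0 to 4 in CC-IF against HFD-IF, from 0 to 5 for the difference between diets, from 1 to 3 past the threshold in CC against HFD (5 with all libraries), from 10 to 10 between tissues and from 0 to 0 in each hippocampal comparison. For the enzymes under a mean of 1 FPKM in hippocampus, the filter over both tissues together fixed the direction between tissues in advance. With no filter on the mean FPKM, 3 were past the threshold in CC against HFD, as a description, without Bhmt2 and Dmgdh. Sardh's difference between diets then had adjusted p = 0.0503 (limma). With median-of-ratios scaling, Sardh in hippocampal CC against HFD turned below 0, to -0.0245. Fitted on the compared groups alone, Gnmt and Cth were past the threshold in CC against HFD, again as a description. Counts over all liver genes moved more: CC against HFD from 265 to 496, HFD-IF against HFD from 152 to 9 and CC-IF against HFD-IF from 68 to 3 in that fit, CC-IF against HFD-IF from 68 to 30 with no filter, and the difference between diets from 128 to 69 with median-of-ratios scaling. With 1 library left out they ran from 51 to 245 in CC against HFD, 5 to 1633 in HFD-IF against HFD, 1 to 1773 in CC-IF against HFD-IF, 16 to 1766 for the difference between diets and 1968 to 2669 in CC-IF against CC (2756 with all). In hippocampus these counts were 0 to 4 under every setting. The cause of these shifts was not tested. With 1 library left out, signs turned within -0.131 to 0.0537 for Cbs in CC against HFD and -0.0297 to 0.656 for Bhmt in CC-IF against CC. They turned within -0.21 to 0.99 for Cth, -0.29 to 0.41 for Ahcy and -0.523 to 0.0224 for Sardh in HFD-IF against HFD, and within -0.66 to 0.55 for Cth, -0.16 to 0.38 for Pemt and -0.21 to 0.56 for Dmgdh in CC-IF against HFD-IF. Pemt's difference between diets ran from -0.0489 to 0.490. Hippocampal changes that turned ran from -0.0369 to 0.0435 for Sardh and -0.0225 to 0.122 for Ahcy in CC against HFD, -0.0190 to 0.114 for Cbs and -0.0939 to 0.0253 for Ahcy in HFD-IF against HFD, -0.100 to 0.0302 for Cbs in CC-IF against HFD-IF and -0.0177 to 0.127 for Ahcy in CC-IF against CC. Without counts, the depth behind single values is approximate, and HFD-IF in liver rests on 2 libraries.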
